A study of Saccharomyces cerevisiae with 10 samples.

Results

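The mitochondrial ribosomal protein genes of Saccharomyces cerevisiae were followed in RNA sequencing of sorted yeast cells. Members were the genes whose symbol in the deposited count table starts with MRPL, MRPS, MRP or RSM followed by a digit. This rule gave 66 of 7252 genes. By RefSeq annotation, 37 encode proteins of the large subunit of the mitochondrial ribosome. The small subunit is represented here by 27 genes. RSM22, annotated as a small subunit protein and as a predicted RNA methyltransferase, was set apart from these 27 as an assembly factor. The remaining gene, MRP8, shares only the name. The rule leaves out 14 mitoribosomal proteins with other names, such as NAM9 and IMG2, which are given as a separate list.

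The mitochondrial ribosome translates the few messages that mitochondrial DNA encodes. These are chiefly core subunits of the respiratory chain and of ATP synthase, and the ribosomal protein VAR1. Its ribosomal RNAs also come from mitochondrial DNA, while almost all of its proteins are encoded in the nucleus, made in the cytosol and imported. Many of these nuclear transcripts are bound after the stop codon by Puf3, an RNA-binding protein that acts on their stability and translation.

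The low and high fractions compared here came from a prototrophic version of the laboratory strain BY4741 that carries sfGFP under the RPL28 promoter, a marker of the subpopulations. Cells grew for 4 h in YPD and were moved for 1 h to nitrogen-limited medium with 0.8 mM proline. They were then sorted by GFP fluorescence and scatter into 5 low and 5 high samples, with doublets and budding cells gated out. All samples share strain, marker and medium. Each low library shares the code that follows the letter with a high library, as L1_2609 does with H1_2609. The sources used here do not say what the codes stand for, or that libraries of 1 code came from 1 culture. The study compared 3 low libraries (L1_2609, L2_2709 and L_2909) with the 5 high ones, and the same 8 were tested here. It had removed L2_2609 and L1_2709 as outliers in a principal component analysis. They are shown here as the left-out low libraries.

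Library totals ran from 18977794 to 23644299 counts in the 3 low libraries and from 22167864 to 27752702 in high, and L1_2709 had 15879779. Low libraries had 983 to 1552 genes at 0 counts and only 28 to 47 genes with 1 to 9 counts, against 383 to 511 and 275 to 345 in high. The daughter-cell genes DSE1 and DSE2 were higher in every low library than in any high one, and the cytokinesis genes HOF1 and CHS2 were lower. The sfGFP transcript overlapped between the fractions, at 121 to 203 CPM (reads of a gene per 1000000 reads of its library, normalised as given below) in the 3 low libraries and 69.8 to 340 CPM in high. In bulk samples fewer cells of a type and less RNA per cell cannot be told apart.

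A sequence feature shared by the members was the element TGTANATA, the DNA form of the Puf3 recognition sequence. It was searched on the sense strand in the 200 bases after the stop codon, in the RefSeq R64 genome. It was present for all 37 large and all 27 small subunit genes as grouped here. It was absent for RSM22, which is annotated as a small subunit protein, and for MRP8. Among 6664 protein-coding genes, 13.1% had it. The 64 members held 78 sites, of which 36 read TGTAAATA, 24 TGTATATA, 17 TGTACATA and 1 TGTAGATA. The site nearest the stop codon began at a median of 51.0 bases after it, and 60 of the 64 members had a site within 100 bases. The following 30-base windows belong to members whose values are described below. The element is in capitals and the coordinates are those of R64.
MRPL31 (chrXI:185225-185254, minus strand): aaaatttcatcTGTATATAgtttaatcatt
MRPL33 (chrXIII:842249-842278, plus strand): tgacttatataTGTATATAgtattattttt
MRPS8 (chrXIII:572761-572790, plus strand): tatacggaccaTGTAAATAataatattata
MRP7 (chrXIV:621243-621272, minus strand): ttaagaatgccTGTAAATAttactattttg
MRPS12 (chrXIV:694269-694298, minus strand): atacaacctttTGTAAATAgcaatgaccat
MRP51 (chrXVI:327697-327726, plus strand): attcagagttcTGTAAATAaataaagaaaa
MRPL32 (chrIII:119206-119235, plus strand): aaacttaagccTGTATATAgaaacttaatt
MRP20 (chrIV:1278499-1278528, plus strand): cccctcacactTGTATATAcggagcaaact

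The element was also common in the lists of genes that work with the mitoribosome. It was found for 14 of 14 mitoribosomal proteins with other names, 14 of 14 mitochondrial aminoacyl-tRNA synthetases and 15 of 18 assembly and RNA factors. For the tricarboxylic acid (TCA) cycle and respiratory chain it was found in 6 of 52 genes, and for the cytosolic ribosomal proteins in 6 of 138. Of 2 promoter motifs searched from 250 bases before to 50 bases after the start codon, CCAAT on either strand was found for 27 of 66 members, or 40.9%, against 44.4% of protein-coding genes. AAAATTTT, which reads the same on both strands, was found for 4 members, or 6.06%, against 8.34%. A match to these letters is a description and not a measured binding site.

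**Figure D1:**
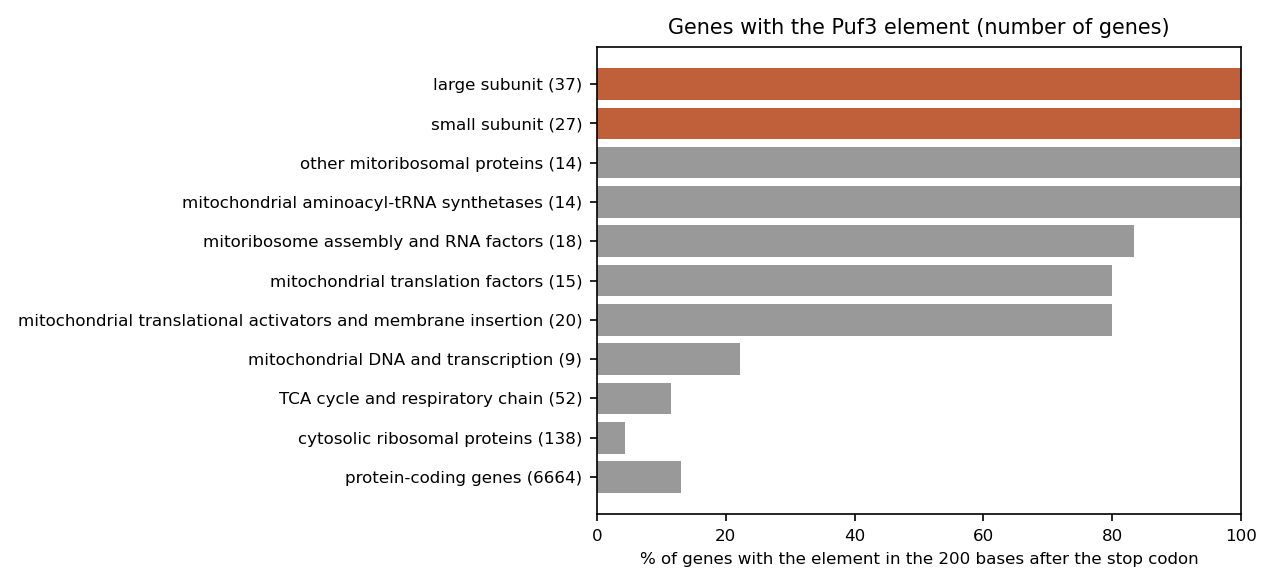
Percentage of genes in each list with TGTANATA in the 200 bases after the stop codon, with the number of genes in parentheses. Both subunits of the mitoribosome (brown bars, without RSM22) reached 100%, against 13.1% of protein-coding genes.

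Levels were given as normalised CPM, the counts scaled to library total and TMM factor, and between genes as CPM per kilobase. Of the 66 genes, 62 had a mean of 15 to 250 CPM over the high libraries, as did 4299 of all 6492 genes tested. Per kilobase, the median member stood at 88.3 CPM in the 3 low libraries and 70.0 in the 5 high ones. Small subunit genes had a median of 93.1 CPM per kilobase in low and 77.9 in high. Large subunit genes had medians of 72.0 in low and 64.4 in high.

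The most abundant member was MRP8, which is not part of the ribosome, with 989 CPM per kilobase in low and 1086 in high. MRPS12, the counterpart of the bacterial decoding-site protein S12, followed with 487 in low and 450 in high. MRPS16 had 281 in low and 282 in high, RSM10 had 210 in low and 231 in high, and MRPL36 had 254 in low and 207 in high. MRPL33 completed the highest 6 of the high libraries, with 245 CPM per kilobase in low and 164 in high. The order of the genes by level was nearly the same in both fractions, with Spearman's rho of 0.986 across the 66 genes, which share libraries and are not independent.

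**Figure D2:**
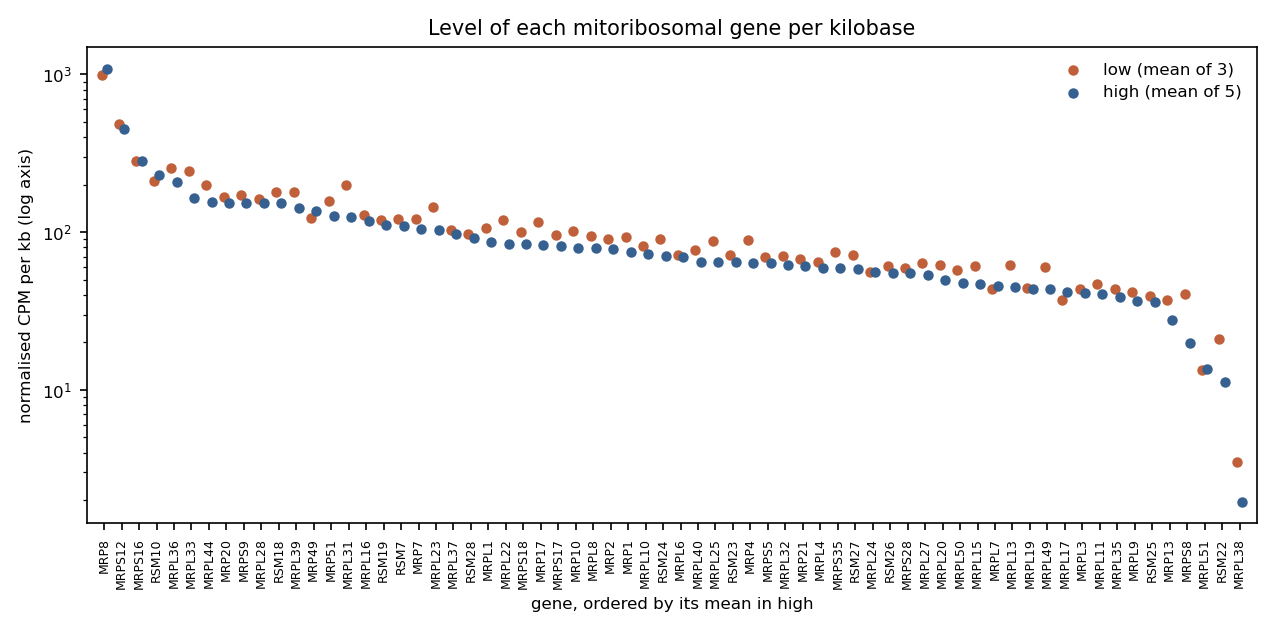
Mean normalised CPM per kilobase on a log axis for each of the 66 genes in low (brown, mean of 3) and high (blue, mean of 5), ordered by the mean in high. MRP8 is highest in both fractions and MRPL38 lowest in both.

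Per kilobase, the lowest members in high were MRPL38, RSM22, MRPL51 and MRPS8. MRPL38, the counterpart of bacterial L14 at the face where the subunits meet, had 21, 73 and 0 counts in L1_2609, L2_2709 and L_2909 and 0 in both left-out low libraries, against 15, 40, 20, 2 and 31 counts in high. Its range in low enclosed that in high. YKL169C, an open reading frame on the opposite strand, overlaps 366 of the 417 bases of MRPL38.
MRPL51, a large subunit protein without a bacterial counterpart, had 4.11, 10.5 and 2.42 CPM in the 3 low libraries and 7.90 and 0 in the left-out ones, against 4.89 to 6.68 in high. Its range in low enclosed that in high, and YPR099C overlaps 323 of its 423 bases on the opposite strand. The other 4 members overlapped by another gene, RSM7, MRPL9, MRPL19 and MRP4, had 20.7 to 80.8 CPM in high. How reads in overlapping genes were assigned is not given in the sources used here, and its part in the low values was not tested.

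In the comparison of low with high, 59 of the 66 genes had a log2 fold change above 0, with a median of 0.22, or 1.17-fold higher in low. Over all 6492 genes tested the median was -0.02, and 47.1% lay above 0. Shifts were small, since 43 members had a log2 fold change between -0.3 and 0.3, and 5 had one above 0.5. A gene was called where its Benjamini-Hochberg adjusted p in edgeR's quasi-likelihood test, over all genes tested, was under 0.05. The 3 members called were MRPL31, MRPL33 and RSM22, all higher in low, which is 4.55% of the members against 0.832% of all genes tested. None was lower, against 4.33% of all genes. At an unadjusted p under 0.05, 10 members were higher in low, or 15.2% against 6.52% of all genes tested, and none was lower, against 11.1%. DESeq2 called 4 members higher, adding MRPL22, or 6.06% against 2.67% of all genes, and none lower, against 7.21%. In limma-voom MRPL31 and RSM22 were called, or 3.03% against 0.770%, and none was lower, against 3.31%. With all 10 libraries edgeR called no member, against 0.706% of all genes higher and 2.84% lower. None of these fits used pairs. With libraries of the same code as pairs in the 8, edgeR called no member, and 18 genes higher and 79 lower among all 6492. In that fit 53 members lay above 0, with a median of 0.23. Over all genes tested 44.4% did, with a median of -0.06.

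**Figure D3:**
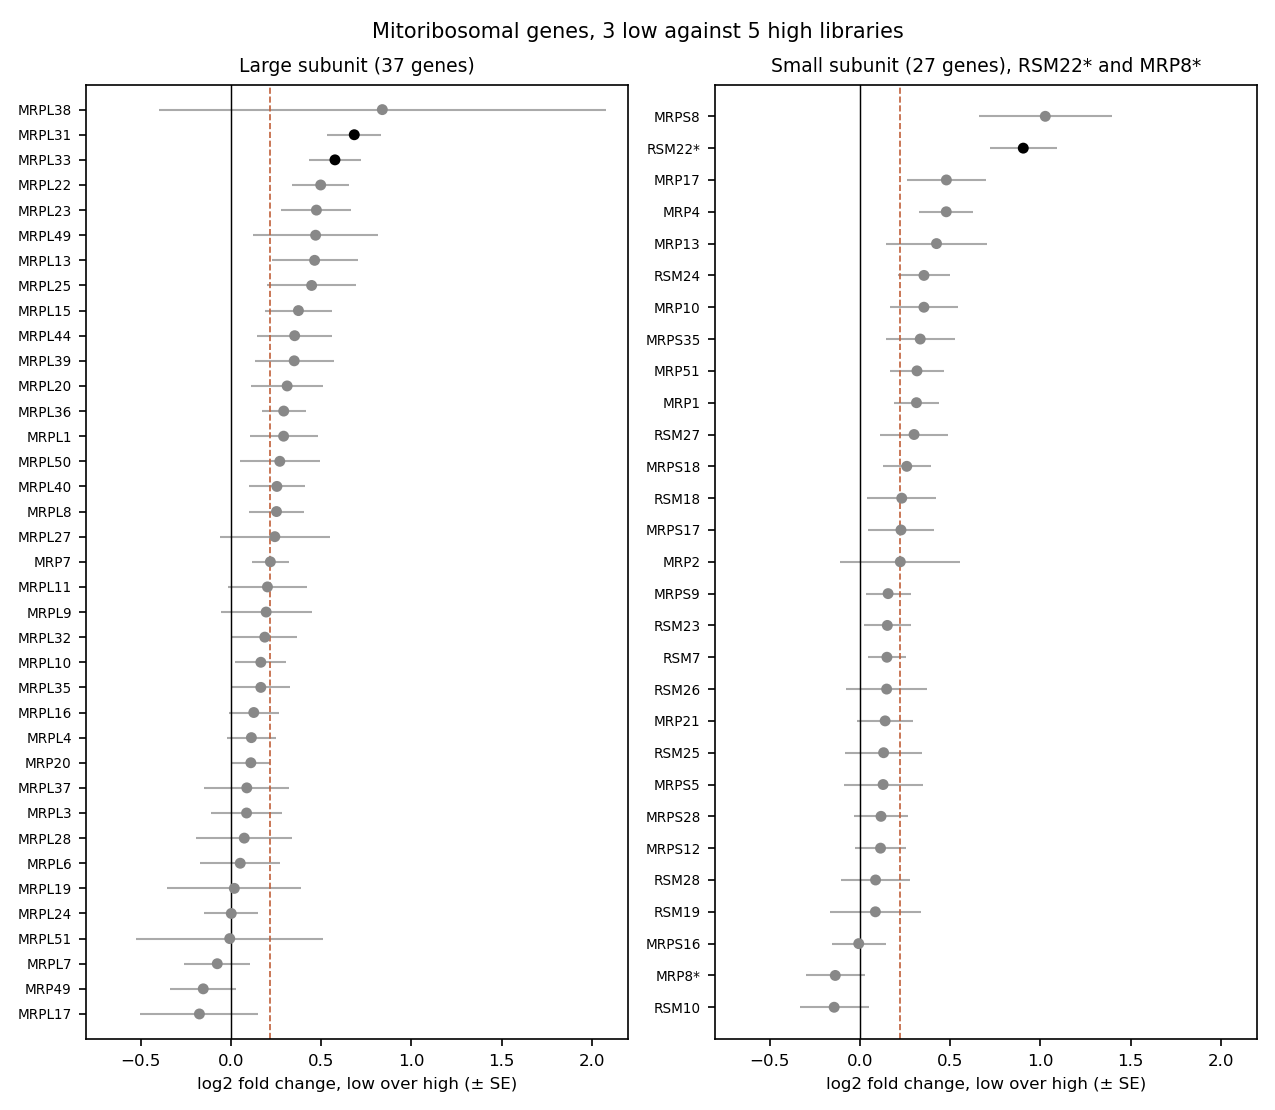
Log2 fold change of low over high for each gene with its standard error, for 3 low and 5 high libraries, split by subunit. Black points passed the test, grey points did not, dashed lines mark the panel medians, and asterisks mark RSM22 and MRP8. In all, 59 of 66 genes lie right of 0.

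RSM22 (YKL155C, chromosome XI, 159456 to 161342, minus strand), linked to assembly of the small subunit, showed the largest change of the called members. It had 41.1, 35.1 and 43.3 CPM in L1_2609, L2_2709 and L_2909 and 23.8 and 33.5 CPM in the left-out L2_2609 and L1_2709, against 17.4, 26.0, 22.1, 20.7 and 20.0 CPM in H1_2609, H2_2609, H1_2709, H2_2709 and H_2909. The 3 low libraries all lay above every high library, while L2_2609 lay below H2_2609. The log2 fold change was 0.91 with a standard error of 0.18 and an adjusted p of 0.0240 in edgeR. With libraries of the same code as pairs it was 1.04 with an adjusted p of 0.155, and with all 10 libraries 0.73 with an adjusted p of 0.115. Without H1_2709, H2_2709 or L_2909 the adjusted p was 0.0749, 0.0764 and 0.0501.

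MRPL31 (YKL138C, chromosome XI, 185286 to 185681, minus strand) is a large subunit protein found only in mitochondria. It had 93.6, 72.3 and 71.0 CPM in the 3 low libraries and 77.7 and 49.0 CPM in the left-out low libraries, against 42.5, 48.5, 46.5, 55.5 and 52.5 CPM in high. Only the left-out L1_2709 fell within the range of the high libraries. The log2 fold change was 0.68 with a standard error of 0.15 and an adjusted p of 0.0320 in edgeR. As pairs it was 0.65 with an adjusted p of 0.288, and with all 10 libraries 0.57 with an adjusted p of 0.124. It lay between 0.0572 and 0.0953 without any of H1_2609, H2_2609, H1_2709, H2_2709 and L1_2609.

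MRPL33 (YMR286W, chromosome XIII, 841942 to 842202, plus strand) is the counterpart of bacterial L30. It had 56.8, 70.7 and 64.1 CPM in the 3 low libraries and 53.7 and 112 CPM in the left-out ones, against 36.6, 44.0, 45.8, 46.2 and 41.2 CPM in high. All 5 low libraries lay above all 5 high ones, with the left-out L1_2709 far above the rest. The log2 fold change was 0.58 with a standard error of 0.14 and an adjusted p of 0.0487 in edgeR. As pairs it was 0.63 with an adjusted p of 0.232, and with all 10 libraries 0.74 with an adjusted p of 0.0755. The call was lost without any of the 5 high libraries, L2_2709 or L_2909, at an adjusted p of 0.0780 to 0.113. The low partners of H2_2609 and H1_2709 are not among the 8 libraries, so the paired values rest on fewer samples.

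Without the left-out low libraries, the levels of 8 members in low lay wholly above those in high. These 8, or 12.1% of the members against 4.93% of all genes tested, were RSM22, MRPL31, MRPL33, RSM24, MRP1, MRP10, MRP7 and RSM7, listed after their values were seen. No member lay wholly below, against 10.6% of all genes tested. With all 5 low libraries, MRPL33 and MRP7 lay wholly above, which is 3.03% of the members against 1.83% of all genes, and again none below, against 6.13%.

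**Figure D4:**
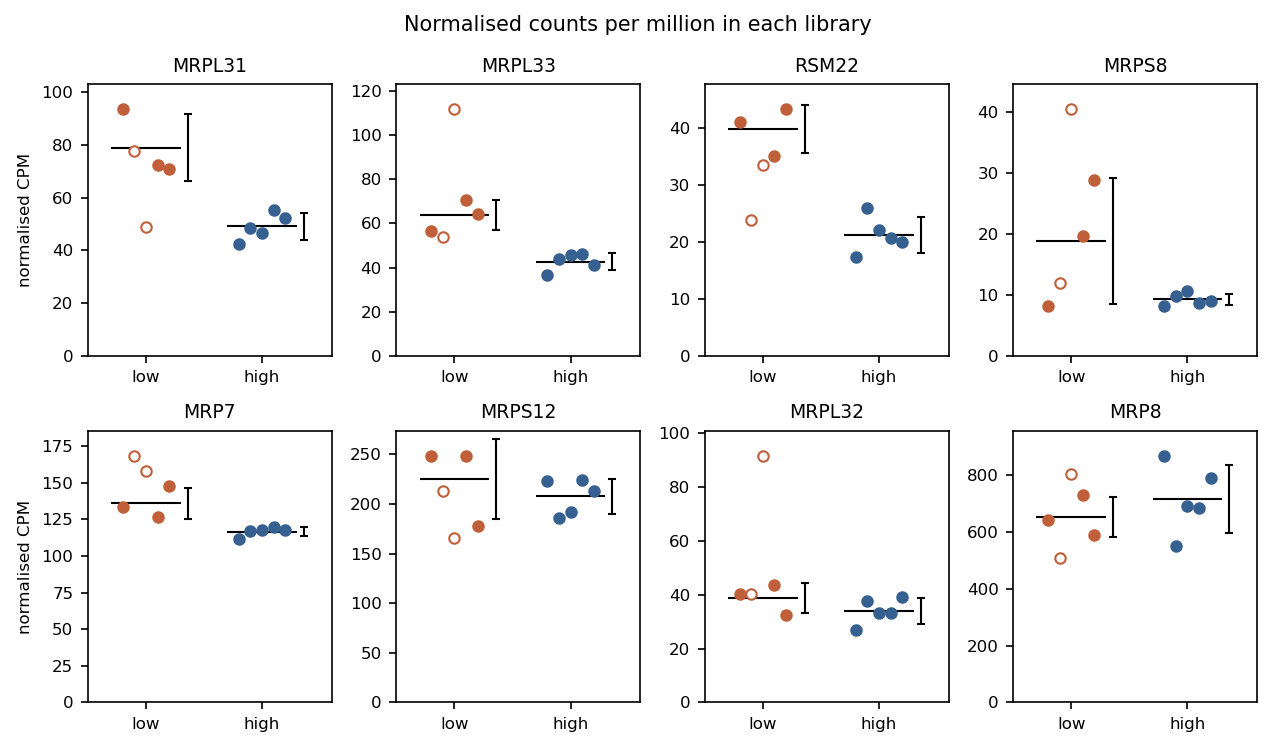
Normalised CPM of 8 members in each library, low at left and high at right. Filled points are the 8 libraries compared, open points the left-out low libraries L2_2609 and L1_2709 (not in the mean), and lines and bars give the mean and SD of the filled points. For MRPL33 and MRP7 every low point lies above every high point, and for MRPS8 the low points spread from 8.26 to 40.5 CPM.

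Among large subunit genes, 33 of 37 had a log2 fold change above 0, with a median of 0.22. MRP7, the counterpart of bacterial L27 near the catalytic centre, had 134, 127 and 148 CPM in the 3 low libraries and 169 and 158 in the left-out ones, against 111 to 120 CPM in high. All 5 low values exceeded the high ones, though its log2 fold change of 0.22 was not called (edgeR, adjusted p = 0.310). MRP20, which corresponds to L23 at the rim of the exit tunnel, had 139, 131 and 125 CPM in the 3 low libraries, against 113 to 129 CPM in high. MRPL36, the counterpart of L31, averaged 136 ± 17.0 CPM in low (SD, n = 3) and 111 ± 8.19 in high (n = 5).

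MRPL32, whose maturation by the m-AAA protease gates ribosome assembly, had 40.2, 43.7 and 32.5 CPM in the 3 low libraries, against 26.9 to 39.1 CPM in high. The left-out L1_2709 reached 91.7 CPM, apart from all other libraries. MRPL32 lies 271 bases from the septin gene CDC10, which is transcribed in the opposite direction. CDC10 fell in low, by a log2 fold change of -1.02 (edgeR, adjusted p = 0.00619), whereas that of MRPL32 was 0.19 and not called.

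MRPL16 (L16) averaged 89.4 ± 12.6 CPM in low and 81.8 ± 7.43 in high. MRPL3, with a fold related to RNase III, averaged 51.1 ± 14.6 in low and 48.1 ± 5.53 in high. MRPL8 (L17) averaged 67.6 ± 13.3 in low and 56.7 ± 4.43 in high, and the left-out L1_2709 had 16.1. For these 3 the ranges of the fractions overlapped. The lowest log2 fold changes of the large subunit were those of MRPL17 at -0.17, MRP49 at -0.15 and MRPL7 at -0.08, none of which was called.

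Among the 27 small subunit genes, which leave out RSM22, 25 had a log2 fold change above 0, with a median of 0.22. None of the 27 was called by edgeR, DESeq2 or limma-voom, each of which called RSM22 higher in low. At an unadjusted p under 0.05, 4 of the 27 were higher, or 14.8% against 6.52% of all genes tested. MRPS8, the counterpart of S8, had the largest log2 fold change of all members, 1.03 with a standard error of 0.37 (edgeR, adjusted p = 0.173). It had 8.26, 19.6 and 28.9 CPM in the 3 low libraries and 12.0 and 40.5 in the left-out ones, against 8.20, 9.81, 10.6, 8.73 and 8.95 CPM in high. L1_2609 lay within the range of high and the other low libraries lay above it. Without L1_2609 the adjusted p was 0.0222.

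MRP51, related to bacterial S1, averaged 162 ± 31.9 CPM in low and 130 ± 11.9 in high. MRPS12 averaged 225 ± 40.6 CPM in low and 208 ± 17.9 in high. MRPS5 (S5) averaged 64.1 ± 24.6 in low and 58.5 ± 5.06 in high. For each of these the ranges overlapped, and none was called.

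MRP10, imported through a twin cysteine motif, averaged 29.2 ± 4.08 CPM in low and 22.8 ± 2.35 in high. RSM23, a GTP-binding relative of the animal protein DAP3, averaged 96.8 ± 12.0 in low and 87.0 ± 7.09 in high. MRP1, with a fold like that of superoxide dismutase, averaged 90.0 ± 4.04 in low and 72.3 ± 7.41 in high. In the left-out L1_2709, MRP10 had 18.1 CPM, RSM23 78.3 and MRP1 45.1, each below every high library. The left-out L2_2609 had 29.5, 102 and 74.3 CPM of them. With all 10 libraries the log2 fold change of MRP1 was 0.11. RSM10 (S10) had the lowest log2 fold change of the small subunit, -0.14, and was not called. MRP8 averaged 653 ± 71.2 CPM in low and 717 ± 119 in high, with a log2 fold change of -0.14.

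By ancestry, the 40 subunit genes with a bacterial counterpart had a median log2 fold change of 0.21, with 37 above 0. The 24 found only in mitochondria had a median of 0.27, with 21 above 0. The genes upstream of the members had a median of 0.01, with 37 of 65 tested above 0, against 47.1% of all genes tested. None of the 65 was called higher, against 0.832% of all genes tested. Called lower were 3 of the 65 (CDC10, TOS2 and WSC2), close to the 4.33% of all genes tested.

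Together the 66 genes took 0.460% to 0.492% of the counts in the 5 low libraries and 0.407% to 0.458% in the 5 high ones, so the fractions did not overlap. The means were 0.478% ± 0.0166 in the 3 low libraries (SD) and 0.435% ± 0.0192 in high (n = 5). The gap between the highest high library, H2_2609, and the lowest low library, L_2909, was narrow. MRP8 alone took 0.0531% to 0.0785% in low and 0.0604% to 0.0816% in high. Without MRP8 the share was 0.392% to 0.427% in low and 0.325% to 0.397% in high, and only L1_2709 lay within the range of high.

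Coherence was measured library by library. Each library was compared with the mean of every gene over the high libraries, so that the counts in low restate the direction of the fold changes. In L1_2609, L2_2709 and L_2909, 49, 51 and 42 of 66 genes lay above that mean, and in the left-out L2_2609 and L1_2709, 45 and 34 did. The median differences on the log2 scale were 0.21, 0.24 and 0.10, and 0.23 and 0.01 in the left-out ones. Over all genes tested, 44.2% to 49.0% lay above the mean in these 5 libraries. The low libraries were also compared with the mean of every gene over all 5 low libraries. Above it lay 42, 40 and 30 of 66 genes in L1_2609, L2_2709 and L_2909, and 35 and 30 in the left-out L2_2609 and L1_2709. Over all genes tested, 46.2% to 55.7% did.

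The high libraries, which themselves make up the mean in high, also differed when compared with it. In H2_2709, 52 of 66 genes lay above their mean in high, against 24 in H1_2609, 25 in H_2909, 38 in H1_2709 and 41 in H2_2609. Over all genes tested the 5 high libraries had 48.4% to 51.1% above. H2_2709 therefore had more members above the mean than any low library, although its median difference of 0.09 was smaller than in 4 of the 5 low libraries. Counted by direction, the high libraries overlapped with the low ones. By median difference, H2_2609 at 0.05, H1_2709 at 0.02 and H2_2709 lay above the left-out L1_2709, and no high library lay above any other low library.

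**Figure D5:**
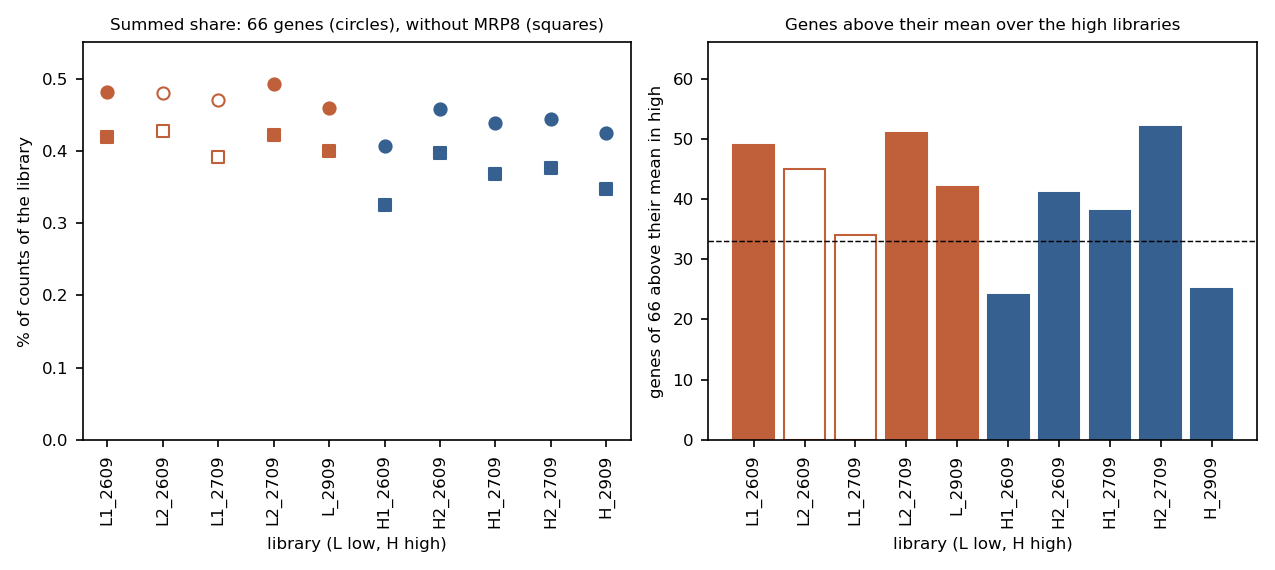
Left, share of a library's counts taken by the 66 genes (circles) and by the 65 without MRP8 (squares). Right, number of the 66 genes above their own mean over the high libraries, with a dashed line at 33. Filled symbols and bars are the 8 libraries compared, open ones the left-out low libraries. All low circles lie above all high circles, while the bar of H2_2709 reaches 52.

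Between libraries of the same code, the median log2 difference of low minus high was 0.27 for L1_2609, 0.17 for L2_2709 and 0.19 for L_2909, and 0.22 for L2_2609 and 0.05 for L1_2709, the left-out low libraries, each against the high library of its code. The corresponding medians over all genes tested lay between -0.11 and -0.03. Higher in low were 53, 47 and 45 of 66 genes in the first 3 of these comparisons and 44 and 34 in the other 2. Over all 10 libraries the codes were not taken as pairs, because L2_2709 and H2_2709 missed the limit given below. In all 5 same-code comparisons, 10 members were higher in low, which is 15.2% against 7.73% of all genes tested. They were MRPL31, MRPL33, MRPL22, MRPL1, MRPL11, MRPL40, MRP7, MRP51, MRPS8 and MRPS28, listed after their values were seen. No member was lower in all 5, against 13.6% of all genes.

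The spread between libraries was larger in low than in high for most members. The median standard deviation of log2(CPM + 0.5) over the members was 0.28 in the 3 low libraries, 0.39 in all 5 and 0.16 in the 5 high ones. Over all genes tested it was also larger in low, at 0.31 in the 3 low libraries and 0.41 in all 5, against 0.25 in high. In 55 members it was larger in the 3 low libraries than in high, and in 60 members it was larger in all 5. The share of all genes tested that did so is not given here, so these counts cannot be read as particular to the members. Among genes with 15 to 250 CPM in high, members had a median of 0.27 in the 3 low libraries and 0.15 in high, and all such genes 0.28 in low and 0.22 in high. The low libraries also had the lower totals and the fewer genes with 1 to 9 counts given above, whose part in this spread was not tested.

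The steadiest members in high were RSM7, MRP7 and RSM18. RSM7 (S7) had 79.5 to 82.5 CPM in the 5 high libraries, a standard deviation of 0.02 on the log2 scale. In low it had 91.8, 87.5 and 89.9 CPM, above every high library, and 70.8 and 76.4 in the left-out libraries, below every one. RSM18, by contrast, had 56.9, 103 and 63.3 CPM in the 3 low libraries, against 59.5 to 66.8 in high.
The most variable in high were MRPL38, RSM19 and MRP13. RSM19, which lies directly upstream of MRPS12 on the same strand and 229 bases away, had 20.9 to 46.9 CPM in high, with H_2909 at the top. MRP13 had 53.8, 27.3 and 32.5 CPM in the 3 low libraries, against 19.1 to 37.3 in high.

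The lists of related genes were compared in the same way, by log2 fold change of low over high and edgeR's calls. Their counts at an unadjusted p under 0.05 stand against 6.52% higher and 11.1% lower over all genes tested, and those of DESeq2 against 2.67% higher and 7.21% lower. Of the 14 mitoribosomal proteins with other names, 12 lay above 0 with a median of 0.21, and none was called, while 4, or 28.6%, were higher at an unadjusted p under 0.05 and DESeq2 called NAM9 and IMG2. Of 18 assembly and RNA factors, 13 lay above 0 with a median of 0.30. None was called, and 7, or 38.9%, were higher at an unadjusted p under 0.05. DESeq2 called YTA12 and SLS1 higher, and so did edgeR with all 10 libraries, at adjusted p of 0.0483 for YTA12 and 0.0496 for SLS1. Of 15 translation factors, such as the elongation factor gene TUF1, 8 lay above 0 with a median of 0.02, or -0.01 as pairs, and none was called by edgeR, DESeq2 or limma-voom, with 2, or 13.3%, higher at an unadjusted p under 0.05.

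Of 14 mitochondrial aminoacyl-tRNA synthetases, 9 lay above 0. At an unadjusted p under 0.05, 1 was higher, or 7.14%, near the 6.52% of all genes, and it was also called. This was MSK1, which charges lysine tRNA, with 176 ± 14.6 CPM in low and 122 ± 8.56 in high and a log2 fold change of 0.53 (edgeR, adjusted p = 0.0291, and 0.198 as pairs). Its adjusted p was 0.0603 to 0.0926 without any of H2_2609, H1_2709, H2_2709, L2_2709 and L_2909. Of 20 translational activators and membrane insertion factors, 16 lay above 0 with a median of 0.18. At an unadjusted p under 0.05, 5 were higher, or 25%, and 1 was lower, or 5%, a share below the 11.1% of all genes. In edgeR and in DESeq2 MBA1 was called higher. MDM38, a membrane protein that binds mitochondrial ribosomes, averaged 126 ± 25.6 CPM in low and 191 ± 21.9 in high, a log2 fold change of -0.60 that was not called (edgeR, adjusted p = 0.0643). It was called lower by DESeq2 (adjusted p = 0.0162) and by edgeR with all 10 libraries (adjusted p = 0.0255), and as pairs its adjusted p in edgeR was 0.226. MBA1, a ribosome receptor at the inner membrane, averaged 40.2 ± 1.71 CPM in low and 20.6 ± 3.43 in high, a log2 fold change of 0.96 (edgeR, adjusted p = 0.0222, and 0.160 as pairs). The left-out L1_2709 had only 11.2 CPM of MBA1, below every high library, and with all 10 libraries the adjusted p was 0.430. Without H1_2709 or H2_2709 it was 0.0732 and 0.0649.

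Other mitochondrial lists had medians between -0.10 and 0.07. Of 52 TCA cycle and respiratory chain genes, 12 lay above 0, with a median of -0.10, and none was called by edgeR, DESeq2 or limma-voom. At an unadjusted p under 0.05, 4 were lower, or 7.69%, a share below the 11.1% of all genes, and none was higher. Of 9 genes of mitochondrial DNA upkeep and transcription, 4 lay above 0 with a median of -0.09 and none called by edgeR, DESeq2 or limma-voom, with 2, or 22.2%, lower at an unadjusted p under 0.05. With all 10 libraries their direction turned, with 6 above 0 and a median of 0.09. Of 11 regulators, PUF3 and the HAP genes among them, 7 lay above 0 with a median of 0.07 and none called, with 2, or 18.2%, higher at an unadjusted p under 0.05 and HAP3 called higher by DESeq2. PUF3 itself averaged 64.3 CPM in low and 61.1 in high, with a log2 fold change of 0.07.

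Of the cytosolic ribosomal proteins, 48 of 136 tested genes lay above 0, with a median of -0.10 and none called. At an unadjusted p under 0.05, 5 were higher, or 3.68%, a share below the 6.52% of all genes, and DESeq2 called 2 higher. Their direction depended on the fit. As pairs the median was 0.45, with 119 of 136 above 0. In that fit RPL41B and RPL42B were called higher (edgeR, adjusted p = 0.0461 and 0.0189), among 18 genes in all. With all 10 libraries the median was 0.07, with 89 of 136 above 0. The 66 members kept a median above 0 in both, at 0.23 and 0.19. Among tested protein-coding genes that are not members, the 784 with TGTANATA after the stop codon had a median of 0.00 and the 5325 without it -0.03.

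Of the RNAs that mitochondrial DNA encodes for the ribosome, VAR1 had 0 counts in every library, and the libraries were made from poly(A) RNA. The small subunit RNA 15S_rRNA had 8.70, 2.52 and 5.88 CPM in the 3 low libraries and 0 in both left-out ones, against 0.463 to 0.945 in high. The large subunit RNA 21S_rRNA had 7.69, 12.1 and 5.57 CPM in the 3 low libraries and 5.59 and 48.1 in the left-out ones, against 1.23 to 1.91 in high. Both were called higher in low, with log2 fold changes of 3.02 and 2.45 (edgeR, adjusted p = 0.0218 and 0.0193). As pairs neither was called, with adjusted p of 0.450 and 0.423. With all 10 libraries 21S_rRNA was called, with an adjusted p of 0.0225, and 15S_rRNA was not, at 0.505. Both calls were lost without H2_2609, H1_2709 or H2_2709, and that of 15S_rRNA also without H1_2609, at adjusted p of 0.0553 to 0.0747.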

How the data were processed

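RNA of sorted fractions was selected with poly-T beads, sequenced as read pairs, filtered and mapped by the authors (HISAT2, with genome and annotation from Ensembl). The authors deposited raw counts per gene and FPKM values, which are the counts per gene length and library total. The counting tool and its strand setting are not given in the sources used here. Of 7252 genes, 6492 passed filterByExpr. Low (3 libraries) was compared with high (5) from the counts with edgeR 4.0.16 in R 4.3.3 (TMM, quasi-likelihood test, Benjamini-Hochberg threshold 0.05). CPM used TMM factors over all 10 libraries. Coordinates are those of the deposited table, which match RefSeq R64 for all 66 members, and symbols missing from it came from R64.

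Over the 8 libraries edgeR's biological coefficient of variation came to 0.355. Every 2 libraries of a group differed by far more than counting noise (chi-square per degree of freedom of at least 35.6). To check whether shared codes pair the libraries, each gene's deviation from its group mean was correlated between same-code libraries over 4372 genes with 30 CPM or more. Within the 8 libraries r was 0.268, 0.103 and 0.293, above a limit of 0.1. Libraries of the 8 were therefore treated as pairs in an alternative fit, the second only barely past the limit. The main fit used no pairs, and paired values are given where a call changed. In all 10 libraries r was 0.388, 0.601, 0.108, 0.0204 and 0.390, so L2_2709 and H2_2709 missed the limit and the codes were not taken as pairs there. In both sets L2_2709 correlated best with H1_2609, and every other low library with the high library of its own code. What the codes stand for is not stated. The labels give each sample of a fraction as a biological replicate.

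Alternatives were other filters, size factors, DESeq2 1.42.0, all 10 libraries, pairs, limma 3.58.1 with voom or on log2 FPKM with 1 or 0.1 added, and each library left out. On simulated counts with 200 changed genes the edgeR fit was tested before use. The changes set there were larger than the median change of the members, so that test does not speak to shifts of that size. Members and lists were chosen with earlier results of these data known. Members named are those called, the 6 highest and 4 lowest per kilobase in high, the 5 largest and 5 smallest fold changes, those with at most 3 counts in a library, the 3 most and 3 least variable in high, and exemplars of known role. Also named are called genes of the lists, VAR1, 15S_rRNA and 21S_rRNA. MRPL22, MDM38 and the neighbouring genes were named after their values were seen. So were the other list genes called by DESeq2, as pairs or with all 10 libraries. The same holds for the members listed as not overlapping or as higher in every same-code comparison.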

Additional observations from a re-analysis of the deposited data

Results flagged for a closer look

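Among the named genes and the summed share of the members, 4 values stood apart from the other libraries of their fraction by Dixon's criterion, of 70 groups of 5 libraries examined. Chance gives about 1 in 20 such groups. In low, MRPL32 had 91.7 CPM in the left-out library L1_2709, against 32.5 to 43.7 in the other 4. In low, 21S_rRNA had 48.1 CPM in the same library, against 5.57 to 12.1 in the others. MRPL38 had 3.48 CPM in L2_2709, against 0 to 0.918 in the other low libraries. In high, MRPS5 had 49.6 CPM in H_2909, against 60.0 to 61.9 in the other 4.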

How the results depend on the processing

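The median log2 fold change of the members stayed above 0 in all 20 alternatives, from 0.17 to 0.26, with 51 to 61 genes above 0 and none called lower. Without MRP8 the median was 0.22, without RSM22 as well 0.22, and over the 60 members that no other gene overlaps 0.23, all chosen after seeing the data. The calls were less stable. RSM22 was called in 13 of 20 alternatives, MRPL31 in 12 and MRPL33 in 5. In all, the main fit called 54 genes higher and 281 lower. With replicate codes as pairs no member was called in the 8 libraries, where 18 genes were called higher and 79 lower in all. With codes as blocks in all 10 libraries no member was called either, although 73 genes were called higher and 175 lower. Without pairing, all 10 libraries gave 0 members, and 45 genes higher and 181 lower. DESeq2 called 183 genes higher and 494 lower. A minimum of 10 CPM in 3 libraries gave 2 members, and 46 genes higher and 175 lower in all. Library totals alone gave 1 member, and 38 genes higher and 277 lower in all. Leaving out 1 library at a time gave 0 to 4 members, 9 to 70 genes higher and 104 to 375 lower. Without H1_2709 or H2_2709 no member was called, and 9 and 12 genes were called higher in all. The 4 members were called without L1_2609, where 70 genes were called higher in all. The causes were not tested.

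Signs changed for 5 members with all 10 libraries, 6 with pairs in the 8, 8 with codes as blocks in all 10, 2 in DESeq2 and 3 in limma-voom, none of them called. Among these, MRPL24 at 0.0025 stood at -0.32 with all 10 libraries and -0.45 with codes as blocks in them, MRPL6 at 0.05 stood at -0.24 and -0.42, and MRPL28 at 0.07 stood at -0.12 with pairs in the 8. MRPL38 stood at -0.50 in limma-voom, -0.33 on log2(FPKM + 0.1) and -3.39 with codes as blocks in all 10 libraries. MRPL8 stood at -0.0585 with blocks in all 10 and RSM19 at -0.0385 with pairs in the 8. MRPL51 was at 0.0071 with DESeq2 and 0.0067 with its size factors in edgeR (RLE). MRPS16 was at 0.0038 and 0.0037 in those, 0.0040 with all 10 libraries and 0.0079 with the 10 CPM minimum. Leaving out 1 library gave ranges of -0.31 to 0.0233 for MRP49, -0.52 to 0.17 for MRPL17, -0.16 to 0.24 for MRPL3, -0.81 to 1.42 for MRPL38, -0.81 to 0.36 for MRPL51, -0.21 to 0.0287 for MRPL7, -0.16 to 0.15 for MRPS16, -0.23 to 0.32 for MRPS5, -0.21 to 0.029 for RSM10, -0.0798 to 0.39 for RSM18 and -0.0249 to 0.29 for RSM19. The difference in summed share, low minus high, was 0.0431 percentage points, 0.0483 with the 10 most counted genes left out of the total and 0.0505 without MRP8. The paired fits of the 8 libraries use 3 low libraries only.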
